A study of Mus musculus with 8 samples.

Results

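The 10 early cytokine genes described here were followed in tumors of the HCA-1 line growing in mouse liver, taken 3 h after mice received imiquimod nanoparticles. They are Il6, Il11, Lif and Osm, which signal through the gp130 receptor chain, Il1a, Il1b, Il1rn and Il33 of the IL-1 family, and Il10 and Csf1. The members were the 10 rows whose symbol in the normalized table is one of these names, joined by Ensembl identifier to the count table, which lists 55536 genes. All 10 passed the filter on low counts.

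HCA-1 is a mouse hepatocellular carcinoma line, and here it was grown in the liver of male C3H mice. The 4 Control tumors came from mice given saline, although one legend of the study calls the controls untreated. The 4 IMQNP tumors came from mice given PFSUV-IMQ, imiquimod loaded into phospholipid-free small unilamellar vesicles, intravenously at 4 mg/kg on day 17. Imiquimod is an agonist of the RNA sensor TLR7. The labels give the mice as 6 to 8 weeks old and the methods as 4 to 6 weeks old. None of the tumors used here came from mice given empty vesicles or free imiquimod, so the drug and its carrier cannot be told apart. The tumors are numbered as in the labels, Control 1, 3, 4 and 5 and IMQNP 1 to 4.

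IL-6, IL-11, LIF and oncostatin M each signal through a receptor complex that contains gp130, whose kinases activate the transcription factor STAT3. In liver this route drives the acute-phase proteins made by hepatocytes. IL-1α and IL-1β bind the IL-1 receptor and activate NF-kB through MyD88, and the IL-1 receptor antagonist encoded by Il1rn occupies the same receptor without signaling.

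Each tumor had between 16883911 and 27687756 counts in genes, with a median of 21666487 in Control and 18120051 in IMQNP. A level of 3 counts, taken as the detection floor, corresponded to between 0.108 and 0.178 CPM, the counts scaled to a common library size. IMQNP 2 stood apart for many of the genes below, and it had the highest CPM of its group for 7 of the 10 cytokines. Krt18, a keratin of liver tumor cells, ranged from 688 to 1256 normalized CPM in Control and from 550 to 1102 in IMQNP, while the fetal liver growth factor Igf2 had at most 1 count in any tumor. The hepatocyte gene Alb reached 22446 CPM in Control 4 and 22736 in IMQNP 2 but was 2938 in Control 5, so hepatocyte transcripts were at unequal levels within both groups.

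The promoters of the cytokines are shown first because NF-kB is a regulator shared by the TLR7 and IL-1 pathways. RefSeq windows of GRCm38.p6, from 250 bases before to 50 after a start site, were at hand for 8 of the 10 genes. An NF-kB motif, which begins with GGGA and ends in CC with 4 free bases between and was searched on both strands, was found in a window of 4 of these 8 genes. Of all 27025 genes with such windows, 22.9% held it, and 20.7% of the 32851 windows did. The windows below are on the strand of the gene and written 5′ to 3′, with the bases matching the motif in capitals. They lie at chr5:30012864-30013163 on the plus strand for Il6, chr11:4257318-4257617 on the plus strand for Lif, chr3:107760420-107760719 on the minus strand for Csf1 and chr2:24336610-24336909 on the plus strand for the most upstream of 3 Il1rn windows.
Il6: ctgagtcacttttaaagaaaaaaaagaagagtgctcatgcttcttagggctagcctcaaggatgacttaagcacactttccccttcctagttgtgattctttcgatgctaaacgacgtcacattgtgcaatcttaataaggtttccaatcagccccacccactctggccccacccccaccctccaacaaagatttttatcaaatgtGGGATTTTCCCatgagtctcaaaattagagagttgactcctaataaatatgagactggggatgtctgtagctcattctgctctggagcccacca
Lif: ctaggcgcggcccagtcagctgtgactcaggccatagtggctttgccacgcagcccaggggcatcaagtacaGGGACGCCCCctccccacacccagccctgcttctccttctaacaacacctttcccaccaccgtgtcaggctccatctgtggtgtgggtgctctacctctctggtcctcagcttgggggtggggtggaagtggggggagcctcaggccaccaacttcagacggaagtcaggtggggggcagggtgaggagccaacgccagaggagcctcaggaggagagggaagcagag
Csf1: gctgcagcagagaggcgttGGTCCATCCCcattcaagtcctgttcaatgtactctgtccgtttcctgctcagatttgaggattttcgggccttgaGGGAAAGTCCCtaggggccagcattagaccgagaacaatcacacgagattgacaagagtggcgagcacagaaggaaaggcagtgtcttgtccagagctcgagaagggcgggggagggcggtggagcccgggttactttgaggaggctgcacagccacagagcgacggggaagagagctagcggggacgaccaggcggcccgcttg
Il1rn: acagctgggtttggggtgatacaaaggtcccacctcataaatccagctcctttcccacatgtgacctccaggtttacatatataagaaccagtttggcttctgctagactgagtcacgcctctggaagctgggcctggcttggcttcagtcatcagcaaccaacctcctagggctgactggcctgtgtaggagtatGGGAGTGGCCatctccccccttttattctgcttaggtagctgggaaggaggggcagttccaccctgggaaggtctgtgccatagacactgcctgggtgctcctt

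The Il6 match GGGATTTTCC began 44 bases before the start site and overlapped a match on the other strand. Csf1 held a pair of overlapping matches 155 bases before its start and another match 231 bases before it. The Lif match GGGACGCCCC began at 178 bases and the Il1rn match GGGAGTGGCC at 54 bases before the start. The windows of Il1a, Il1b, Il11 and Il33 held no match to these letters. The other windows of Il1rn held no match to this or any other motif searched here. The AP-1 motif TGANTCA was present in windows of Il6, Il11, Lif, Il1a and Il1rn, against 8.97% of all genes, and the C/EBP motif TTGCNNAA in those of Il6 and Il33, against 12.2% of all genes. The STAT motif TTCNNNGAA and the interferon response core were in none of the member windows, against 9.55% and 3.99% of all genes. These matches are letters in a window, and binding was not measured.

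Il6 and Il1rn were the 2 cytokines called higher in the IMQNP tumors. Both were past an adjusted p of 0.05 and a log2 fold change of 1 in edgeR's quasi-likelihood test. No cytokine was called lower. Over all 15998 genes tested, 2.26% were called higher and 0.200% lower. The 5 cytokines Il6, Il11, Lif, Il1rn and Csf1 were higher in every IMQNP tumor than in every Control tumor, which held for 6.00% of the tested genes, while 3.28% were lower in every IMQNP tumor. The remaining 5 overlapped between groups. The median log2 fold change of the cytokines was 0.85, against -0.03 over all tested genes. Since the members were chosen with results of these tumors known, these counts describe them and test nothing about the list.

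**Figure D1:**
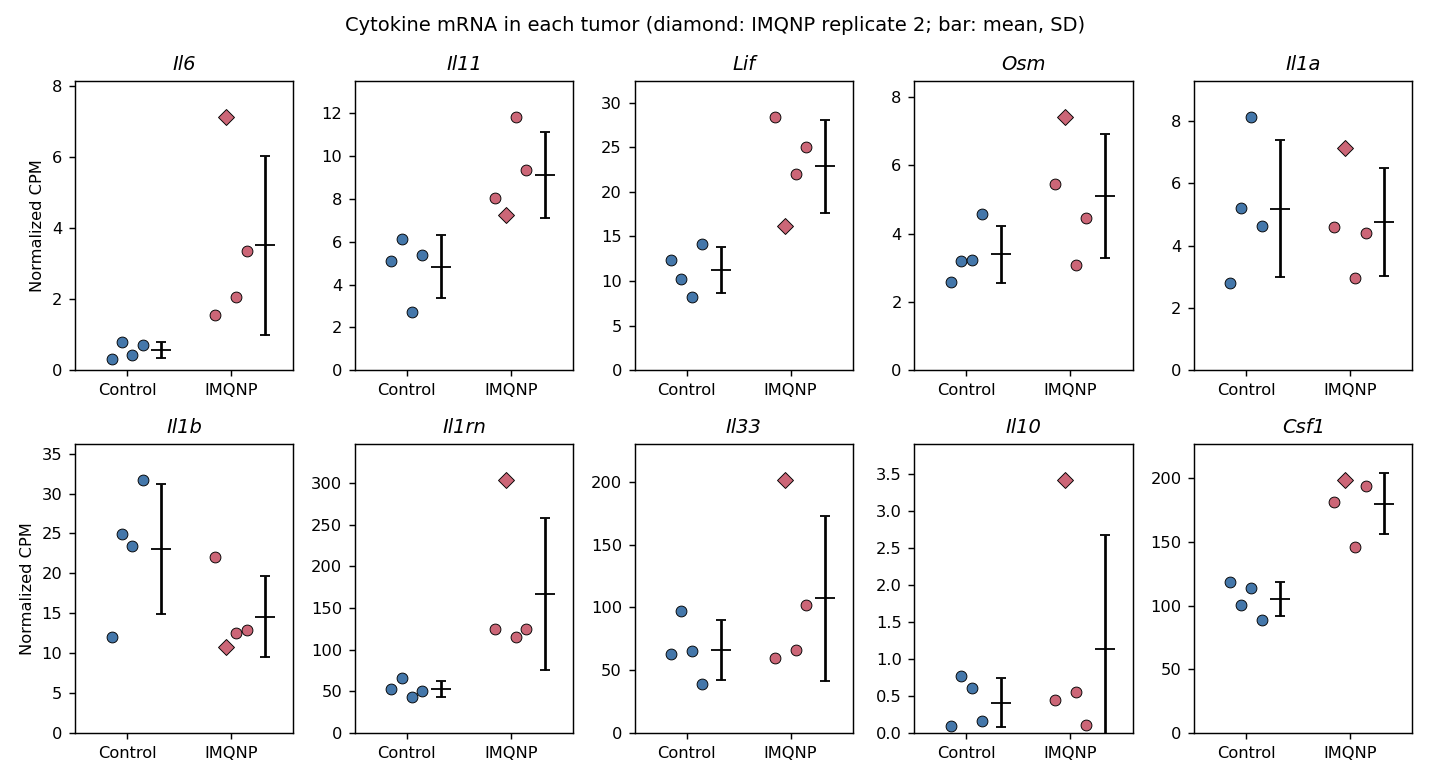
Normalized CPM (y axis, linear and scaled to each gene) of the 10 cytokines in each Control and IMQNP tumor (points), with the group mean and SD as bars, cut at 0 for Il10. The IMQNP points lie above all Control points for Il6, Il11, Lif, Il1rn and Csf1, and IMQNP 2 (diamond) is the highest IMQNP point in 7 of 10 panels.

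Il6 (chr5:30013114-30019981 in GRCm38, GENCODE M21, as for the positions below), the founding ligand of the gp130 family, was scarce in Control tumors. Its normalized CPM was 0.323, 0.808, 0.430 and 0.706 in Control 1, 3, 4 and 5, from 7 to 23 counts. In IMQNP 1 to 4 it was 1.54, 7.13, 2.06 and 3.36, from 28 to 102 counts. The groups did not overlap, and IMQNP 2 was the highest. The mean rose from 0.567 ± 0.228 CPM (SD, n = 4) to 3.52 ± 2.52 (n = 4), a log2 fold change of 2.61 with a standard error of 0.54 and an adjusted p of 0.0374 in edgeR, or 6.11-fold. In a whole tumor, a change in the number of producing cells and a change in RNA per cell cannot be told apart. The call was lost when any tumor other than IMQNP 1 was left out, with log2 fold changes from 2.0 to 2.86 and adjusted p from 0.0260 to 0.124 in edgeR over the 8 fits, and the gene has no value where 10 counts are required in every tumor.

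Lif (chr11:4257557-4272514), a gp130 ligand named for its effect on myeloid leukemia cells, was at 12.3, 10.2, 8.20 and 14.1 normalized CPM in the Control tumors. The IMQNP tumors had 28.4, 16.1, 22.0 and 25.0, so that every one exceeded the Control range, with IMQNP 2 the lowest of its group. The log2 fold change was 1.03 with a 95% interval from 0.50 to 1.56, and edgeR's adjusted p of 0.0549 fell short of the threshold. DESeq2, whose Wald test called 2.85% of its 21628 genes higher, gave Lif an adjusted p of 0.00764, and edgeR without IMQNP 2 gave 0.0304 with a log2 fold change of 1.15. With any other single tumor left out, edgeR did not call it, with adjusted p from 0.0513 to 0.177, and upper-quartile normalization gave 0.0923.

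Il11 (chr7:4772373-4782859), which acts on stromal and epithelial cells through the same chain, measured 5.12, 6.11, 2.71 and 5.38 CPM in Control and 8.06, 7.27, 11.8 and 9.37 in IMQNP. The groups were apart with IMQNP 3 highest, but the log2 fold change of 0.92 (95% interval 0.27 to 1.57) did not pass the test, with an adjusted p of 0.172 in edgeR. Osm (chr11:4236420-4241026), whose gene lies 16530 bases from Lif on chromosome 11 with no protein-coding gene between, measured 2.58, 3.20, 3.22 and 4.56 CPM in Control and 5.46, 7.41, 3.07 and 4.47 in IMQNP. Its groups overlapped, and the log2 fold change of 0.59 had a 95% interval from -0.12 to 1.30.

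Il1rn (chr2:24336853-24351494) showed the other called change. Its Control values were 53.2, 66.3, 42.8 and 49.8 normalized CPM, and its IMQNP values were 124, 304, 115 and 125. All 4 IMQNP tumors lay above Control, 3 of them close together and IMQNP 2 far above. The mean rose from 53.0 ± 9.87 CPM (SD, n = 4) to 167 ± 91.2 (n = 4), a log2 fold change of 1.66 with a standard error of 0.33 and an adjusted p of 0.0309 in edgeR. Without IMQNP 2 the log2 fold change was 1.18 and the gene was still called, with an adjusted p of 0.00861 in edgeR. The call was lost without Control 1, 3, 4 or 5 or IMQNP 4, where edgeR's adjusted p ran from 0.0539 to 0.103 at log2 fold changes from 1.56 to 1.78.

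Neither IL-1 agonist passed the test. Il1b (chr2:129364570-129371139), the secreted agonist, was at 12.0, 24.9, 23.5 and 31.7 CPM in Control and at 22.0, 10.8, 12.5 and 13.0 in IMQNP, and the groups overlapped through Control 1, which lay below 3 of the IMQNP tumors. Its log2 fold change was -0.66 with a 95% interval from -1.38 to 0.06 and an adjusted p of 0.446 in edgeR. Il1a (chr2:129299610-129309972), whose product is active as a precursor, was at 2.81, 5.20, 8.12 and 4.62 CPM in Control and at 4.58, 7.13, 2.96 and 4.41 in IMQNP. Its log2 fold change was -0.13 with a 95% interval from -0.96 to 0.71. Both genes share exon bases with a gene on the opposite strand, Il1a 11.2% with Gm14023 and Il1b 1.31% with Il1bos, and the strand setting of the counting was not given in the sources used here. Those partners had at most 24 and 7 counts in any tumor, against at least 53 for Il1a and 155 for Il1b.

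The antagonist was higher relative to both agonists in the IMQNP tumors. The log2 ratio of Il1rn to Il1b, with 0.5 CPM added to each, was 2.10, 1.39, 0.85 and 0.64 in Control and 2.47, 4.75, 3.16 and 3.22 in IMQNP. Every IMQNP tumor exceeded every Control tumor, and the means of 1.25 ± 0.65 and 3.40 ± 0.96 (SD, n = 4 each) differed by 2.15, or 4.45-fold (exact two-sided permutation p = 0.0286, the smallest that 4 against 4 tumors allow, and 0.0286 after adjustment over the 2 ratios). For Il1rn to Il1a the log2 ratios were 4.02, 3.55, 2.33 and 3.30 in Control and 4.62, 5.32, 5.07 and 4.68 in IMQNP, a difference of 1.62 with the same exact permutation p. Both ratios share Il1rn and are not independent, and they were chosen with its change known. Without IMQNP 2 the differences were 1.70 and 1.49. These are ratios of mRNA reads, and protein was not measured.

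**Figure D2:**
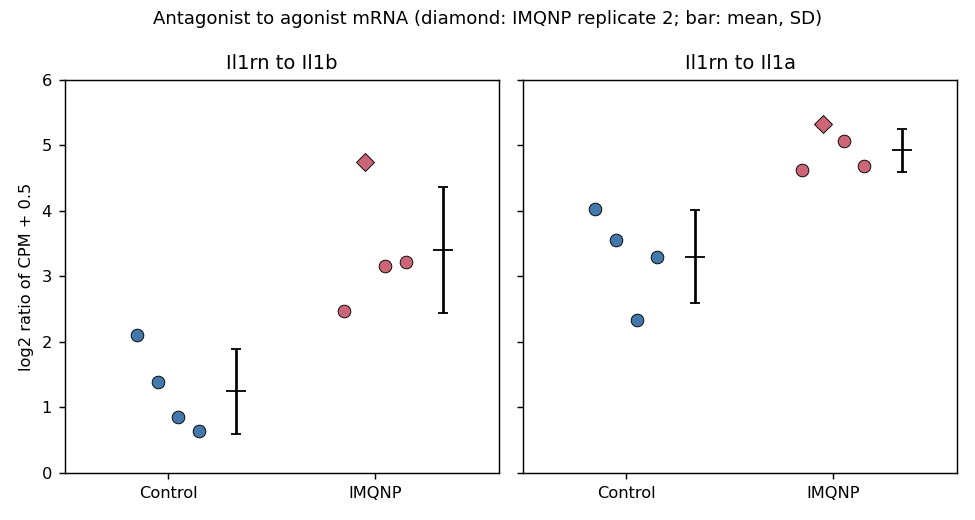
Log2 ratio of Il1rn to Il1b (left) and to Il1a (right) CPM, each with 0.5 added, in the Control and IMQNP tumors (points; diamond, IMQNP 2), with the group mean and SD as bars. All IMQNP points lie above all Control points in both panels, with differences of the means of 2.15 and 1.62.

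Il33 (chr19:29925114-29960718), a nuclear alarmin of the IL-1 family, was at 62.8, 97.5, 65.4 and 39.3 CPM in Control and 59.6, 202, 65.7 and 102 in IMQNP. IMQNP 2 was the one tumor far above the highest Control value, and the groups overlapped. The log2 fold change of 0.69 had a 95% interval from -0.23 to 1.61 and became 0.17 without IMQNP 2. Il10 (chr1:131019845-131024974), which restrains macrophage activation, was near the floor at 0.0922, 0.773, 0.601 and 0.163 CPM in Control and 0.441, 3.42, 0.558 and 0.110 in IMQNP, from 2 to 22 and from 2 to 49 counts. Its log2 fold change of 1.38 had a 95% interval from -0.77 to 3.53 and was -0.20 without IMQNP 2.

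Csf1 (chr3:107741048-107760469), the growth factor of macrophages, was at 118, 100, 114 and 89.0 CPM in Control and 181, 199, 146 and 194 in IMQNP, with both groups tight and apart. The log2 fold change of 0.77 had a standard error of 0.17 and edgeR gave it an adjusted p of 0.0428. It passed the test on p but was below the limit of 1, so it was not called. With scaling factors taken from the deposited normalized table, the adjusted p was 0.0523 in edgeR, and it ran from 0.0568 to 0.156 with each tumor left out. In edgeR it was also 0.0504 with upper-quartile normalization, 0.0978 without a filter and 0.0667 with a replicate block. It was 0.0423 with RLE normalization and 0.0379 where 10 counts were required in every tumor. DESeq2's Wald test gave 0.00578 at a log2 fold change of 0.77, still below the limit. The transcript of its receptor, Csf1r, had a mean of 116 ± 40.7 CPM (SD, n = 4) in Control and 69.4 ± 29.8 (n = 4) in IMQNP, with overlapping groups and an adjusted p of 0.388 in edgeR.

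**Figure D3:**
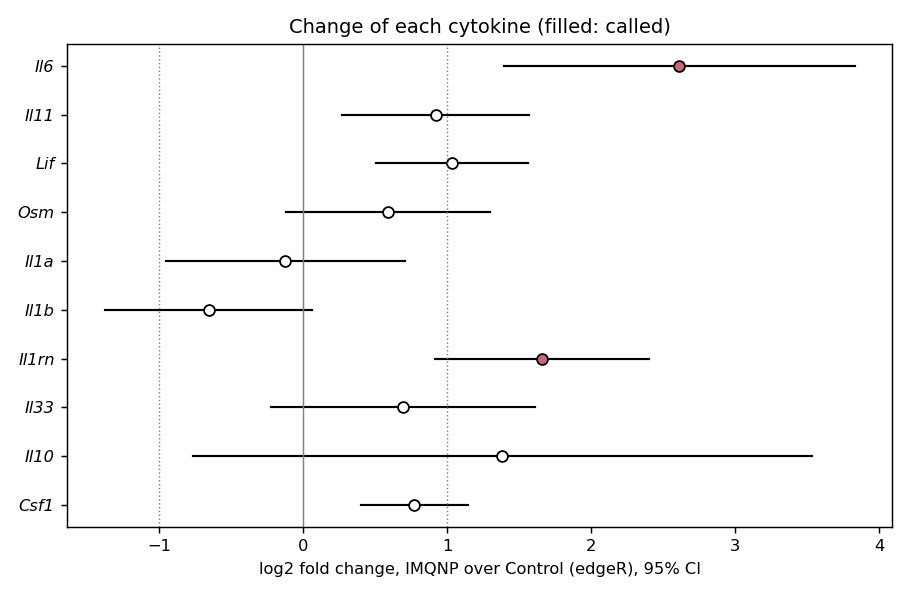
Log2 fold change of IMQNP over Control (x axis) for each cytokine (y axis) from edgeR, with the 95% interval as a line, dotted lines at the limit of 1 and filled points for called genes. Il6 at 2.61 and Il1rn at 1.66 are filled, and the intervals of Osm, Il1a, Il1b, Il33 and Il10 include 0.

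Compared per kilobase of exon (RPKM), the level order in Control ran Il33, Csf1, Il1b, Il1rn, Il1a, Lif, Il11, Osm, Il10 and Il6, from a mean of 23.0 ± 8.29 RPKM (SD, n = 4) for Il33 to 0.233 ± 0.0939 for Il6. Ranges of neighbors overlapped except between Csf1 and Il1b, between Il1rn and Il1a and between Osm and Il10. In IMQNP tumors Il1rn ranked above Il1b with 30.2 ± 16.5 RPKM against 7.64 ± 2.65 for Il1b, and theirs were the only neighboring ranges that did not overlap. Il6, at 1.45 ± 1.04 RPKM, ranked above Il10 alone, with overlapping ranges.

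Short-lived cytokine mRNAs often carry repeats of the pentamer ATTTA, which the decay factor tristetraprolin, encoded by Zfp36, binds. In the GENCODE M21 3′ UTRs the pentamer occurred 6 times in 427 bases of Il6, a density of 14.1 per kilobase that was above 99.7% of 19627 genes. Il1b held 4 (8.71 per kilobase), Il10 6 (8.50), Il11 10 (8.38) and Osm 6 (5.90), while Il1a, Lif, Csf1 and Il33 had between 1.79 and 2.72 per kilobase against a median of 1.34 over all genes. Il1rn held none in 1864 bases. Il6 had the highest density of the 10 and Il1rn the lowest. RNA decay was not measured. The 30-base stretches richest in the pentamer (capitals) are given for Il6, Il11 and Il1b, the first 2 apart between groups and the last not.
Il6: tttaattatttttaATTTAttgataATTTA
Il11: ctttaaaaccagatcttATTTATTTATTTA
Il1b: caaccacttacctATTTATTTAtgtATTTA

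Over the 8 tumors, the genes whose deviations from the group means followed those of Il6 most closely were Apobec3 (Pearson r = 0.951), Myb (0.951) and Bloc1s4 (0.941), among 14668 genes with a mean of at least 1 CPM. For Il1rn they were Gm15056 (0.991), Pfkfb3 (0.990) and Pip4p1 (0.987). Both cytokines had their largest deviation in IMQNP 2, which these correlations share.

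Among the other genes of the gp130 route, 1 of 5 tested ligands was called higher, against 2.26% of all tested genes. This was the IL-27 subunit gene Il27, at 1.14 ± 0.393 CPM (SD, n = 4) in Control and 6.24 ± 4.32 (n = 4) in IMQNP. Its log2 fold change was 2.44, with an adjusted p of 0.0286 in edgeR. Its call was lost without Control 1, 3 or 5 or IMQNP 3 (adjusted p 0.0543 to 0.104 in edgeR). Clcf1, another ligand gene of the family, had a log2 fold change of 0.57 and did not pass. Of 12 tested receptors and transducers, 1 was called higher and 3 were higher in every IMQNP tumor than in every Control tumor. Over all tested genes, these shares were 2.26% and 6.00%. The called gene was the oncostatin M receptor chain Osmr. It had 32.9, 31.2, 35.0 and 24.7 CPM in Control and 56.1, 136, 61.6 and 81.7 in IMQNP. Its log2 fold change was 1.44, with an adjusted p of 0.0286 in edgeR. That call was lost without any 1 Control tumor or IMQNP 4 (adjusted p 0.0639 to 0.0958 in edgeR). Stat3 (log2 fold change 0.84, adjusted p 0.0578 in edgeR) and the kinase gene Jak2 (0.93, adjusted p 0.262) were apart between groups without passing. Il6st, which encodes gp130 itself, was at 250 ± 67.6 CPM (SD, n = 4) in Control and 244 ± 31.2 (n = 4) in IMQNP. The median of the receptor list was 0.05 on the log2 scale.

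Of the 20 STAT3 target genes tested, 1 was called higher, the kinase gene Pim1, against 2.26% of all tested genes. Its mean was 103 ± 22.2 CPM (SD, n = 4) in Control and 215 ± 47.4 (n = 4) in IMQNP. The log2 fold change was 1.06, with an adjusted p of 0.0354 in edgeR. This call was lost without any 1 tumor other than Control 5 (adjusted p 0.0586 to 0.127 in edgeR). All 20 had a positive log2 fold change, against 7361 of the 15998 tested genes. Of the 20, 4 were higher in every IMQNP tumor than in every Control tumor, against 6.00% of the tested genes. The median log2 fold change of the 20 was 1.05, or 0.57 without IMQNP 2. The serum amyloid A genes, acute-phase products, had the largest values without passing. Saa3 was at 3.32, 2.49, 2.36 and 21.7 CPM in Control and 21.3, 1182, 230 and 181 in IMQNP, a log2 fold change of 5.76 with an adjusted p of 0.0544 in edgeR. Saa1 and Saa2 had log2 fold changes of 2.82 and 3.01 and overlapped through Control 1, and as near-identical neighbors they may share reads. The summed CPM of the hepatocyte markers was also highest in IMQNP 2, at 35545 against at most 9352 in the other IMQNP tumors. The hepatocyte gene Alb was at 22736 CPM in IMQNP 2, 22446 in Control 4 and 2938 in Control 5. Saa3 was at 1182, 2.36 and 21.7 CPM in the same tumors. The part of hepatocyte transcripts in these values was not tested.

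On the IL-1 side, the adaptor gene Myd88 was the 1 gene called higher of 8 adaptors and kinases tested, against 2.26% of all tested genes. It was at 29.9, 29.0, 30.5 and 31.7 CPM in Control and at 61.3, 114, 55.0 and 56.2 in IMQNP, with a log2 fold change of 1.24 and an adjusted p of 0.0287 in edgeR. The call was lost without any 1 Control tumor (adjusted p up to 0.101 in edgeR) and without IMQNP 2, where the log2 fold change was 0.91 at an adjusted p of 0.00966. Irak3, a brake on the pathway, and Irak2 had log2 fold changes of 0.89 and 0.26 and did not pass. None of the 9 receptors and decoys passed the edgeR call. Il1r1, the signaling receptor, had the largest value (1.73, adjusted p 0.249) and was at 206 CPM in IMQNP 2 against at most 66.8 in the other IMQNP tumors. Il18bp, a decoy for IL-18, came next at 1.33 with an adjusted p of 0.0508 in edgeR, and Il1rl2 was at -0.81. The IL-18 gene Il18 was the 1 other ligand of the family that could be tested, with a log2 fold change of 0.84 and overlapping groups.

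Of 9 genes for IL-1 processing and release, 1 was called higher and 4 were higher in every IMQNP tumor than in every Control tumor. Over all tested genes, these shares were 2.26% and 6.00%. The called gene, the inflammatory caspase gene Casp4, went from 34.9 ± 5.50 CPM (SD, n = 4) to 98.6 ± 22.3 (n = 4). Its log2 fold change was 1.50, with an adjusted p of 0.00413 in edgeR. It was still called with each of the 8 tumors left out. Casp1, which cleaves the IL-1β precursor, had a log2 fold change of 0.96 and non-overlapping groups at an adjusted p of 0.103 in edgeR, and the inflammasome adaptor gene Pycard one of 1.18 with overlapping groups. The sensor gene Nlrp3, chosen after its values were seen, was at 0.37.

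Zfp36, which is both an early NF-kB target and the decay factor named above, rose from 75.9 ± 13.2 CPM (SD, n = 4) to 182 ± 59.1 (n = 4), with a log2 fold change of 1.26 and an adjusted p of 0.0277 in edgeR. Leaving out any 1 Control tumor, IMQNP 3 or IMQNP 4 ended the call (adjusted p 0.0509 to 0.0928 in edgeR). It was the single call among 16 NF-kB early targets and among 7 decay factors, while 2.26% of all tested genes were called higher. All 16 targets had positive log2 fold changes, against 7361 of the 15998 tested genes. Their median was 1.00, or 0.65 without IMQNP 2. Of the 16, 7 were higher in every IMQNP tumor than in every Control tumor, against 6.00% of the tested genes. The chemokine genes Ccl2 and Cxcl1 had 1.90 (adjusted p 0.0549 in edgeR) and 1.37 (adjusted p 0.154). The other decay factors Zc3h12a and Elavl1 were at 0.41 and 0.15. Without IMQNP 2, the log2 fold changes of Il27 and Osmr were 1.83 and 1.08.

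Neither the IL-10 family (4 tested genes) nor the CSF family (7 tested genes) held a call in edgeR. Il22ra1 had the largest value of the first at 1.76, followed by Il10ra at 0.91 and Il20rb at 0.64. In the CSF family the values were -0.75 for Csf1r, 0.68 for Csf2 and 0.49 for Csf3r. In all, 6 ligand and receptor genes of the IL-10 family, among them Il22 and Il20, had at most 3 counts in every tumor.

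**Figure D4:**
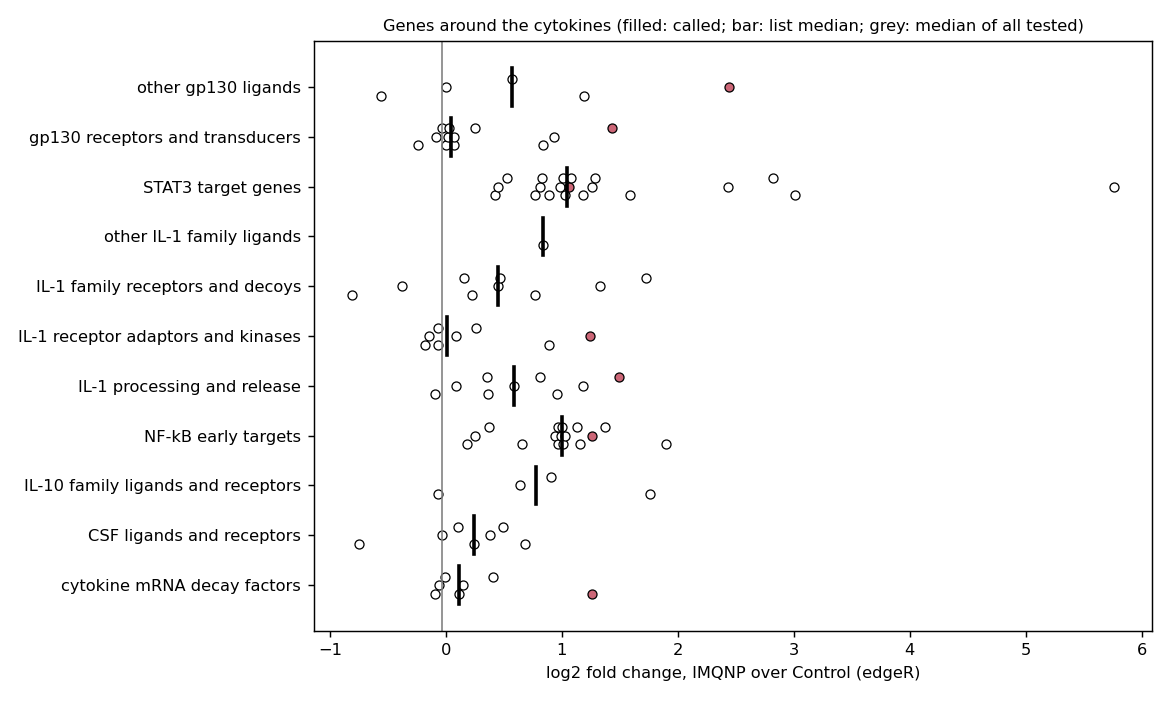
Log2 fold change of IMQNP over Control (x axis) for the tested genes of the 11 lists around the cytokines (y axis), with filled points for called genes, a bar at each list's median and a grey line at the median of all tested genes. All points of the STAT3 and NF-kB target lists lie above 0, with medians of 1.05 and 1.00, while those of the gp130 receptors and the IL-1 adaptors are 0.05 and 0.01.

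Markers of the cells that could make these cytokines were read beside them. Among 12 macrophage and monocyte markers, Vsig4, a Kupffer cell receptor, fell from 17.3 ± 7.61 CPM (SD, n = 4) to 5.63 ± 2.10 (n = 4), with a log2 fold change of -1.62 and an adjusted p of 0.0453 in edgeR, and no other passed. This held without IMQNP 2 and was lost without any other tumor (adjusted p 0.0688 to 0.124 in edgeR). Of the monocyte genes, Ly6c2 had a log2 fold change of 1.88 (adjusted p 0.0633 in edgeR) and Ccr2 one of -1.23 (adjusted p 0.0890), in opposite directions, and Lyz2 was at -0.28. The summed CPM of this list ran from 1237 to 2030 in Control and from 874 to 1794 in IMQNP.

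Neutrophil markers summed to between 18.1 and 74.2 CPM in Control and between 36.2 and 162 in IMQNP, the highest in IMQNP 2. All 7 that were tested had positive log2 fold changes, against 7361 of the 15998 tested genes. The values were 2.48 for Retnlg and 1.17 for S100a9, and none of the 7 passed in edgeR. The hepatocyte list ran from 4459 to 34431 CPM in Control and from 6378 to 35545 in IMQNP, with -0.14 for Alb and 0.57 for Apoc3. The part of these cells in the changes of Il6 and Il1rn was not tested.

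The remaining lists held no call in edgeR, and their summed CPM overlapped between groups. The ranges were 82.9 to 110 and 68.8 to 105 for dendritic cells (Itgax -0.27, Flt3 -1.14), 31.6 to 105 and 31.0 to 131 for mast cells (Tpsb2 0.72), and 39.4 to 82.0 and 40.7 to 120 for T and B cells (Cd8a 0.48, Cd79a 0.81). They were 116 to 192 and 95.5 to 150 for endothelium (Cdh5 -0.05, Stab2 -0.83), 1723 to 2570 and 2308 to 6271 for fibroblasts and stellate cells (Col1a1 0.87, Lrat -1.81), and 1274 to 2135 and 1008 to 2058 for liver tumor cells (Krt18 0.04, H19 -0.43). In each pair the first range is Control and the second IMQNP, and the values of single genes are log2 fold changes.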

How the data were processed

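The authors deposited read counts per gene for 8 tumors and a second table of the same counts divided by 1 DESeq2 size factor per tumor, a normalized signal that was used here to find the members and in 1 alternative. Alignment and counting are given as TopHat and HTSeq in the methods, while the submitters' processing notes name HISAT2 2.1.0 and featureCounts 2.0.0. The build was not given in the sources used here, and all 55536 identifiers are in GENCODE M21 of GRCm38.

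Tests used edgeR 4.0.16 in R 4.3.3 on the counts, with TMM normalization, the default filter, the quasi-likelihood test and Benjamini-Hochberg adjustment over 15998 genes. Genes counted as called where the adjusted p was under 0.05 and the log2 fold change was beyond 1 in size. CPM use the TMM factors. Ratios were compared with exact permutation tests in scipy 1.17.1. The script was tested on simulated data. Alternatives were RLE, upper-quartile and the authors' size factors (the last chosen after seeing the data), no filter, 10 counts in every tumor, DESeq2 1.42.0, no fold limit, a replicate block and each tumor left out. Replicates are separate tumors.

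The members, the 11 pathway lists, the 9 marker lists and the motifs were chosen with earlier results of these data known, and the search for ATTTA was added after seeing the data. Named genes are all members, the called genes and the 3 largest changes of each pathway list, the most abundant gene and the largest change of each marker list, and the 3 genes most correlated with a member, with Il6st, Nlrp3, Igf2, Il20, Il22, Ccr2 and Vsig4 added after their values were seen. The values of 1 gene that this rule names are not reported here. Promoters are from RefSeq.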

Additional observations from a re-analysis of the deposited data

Results flagged for a closer look

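Each group of 4 tumors was checked for a tumor far from the other 3, over the 10 cytokines, the named pathway genes and the ratios. Of 86 groups, 15 had such a tumor, where chance gives about 1 in 20, and 11 of the 15 were IMQNP 2. Genes of 1 tumor are not independent. The pathway genes were named for calls or large changes in these same tumors, so 1 in 20 is not the exact rate for this set.

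IMQNP 2 was the highest of its group for Il1rn, at 304 normalized CPM against 115 to 125 in the other 3 IMQNP tumors, and for Il10, at 3.42 against 0.110 to 0.558. The same held for Casp1 (141 CPM), Il18 (25.2 CPM), Il22ra1 (5.87 CPM), Il27 (12.6 CPM), Irak3 (17.3 CPM), Myd88 (114 CPM), Pycard (22.1 CPM) and Stat3 (445 CPM). It was the lowest for Csf2, at 3.28 CPM against 7.55 to 7.75. Among Control tumors, Control 1 was the highest for Saa1 (485 CPM) and Saa2 (448 CPM), Control 5 was the highest for Saa3 (21.7 CPM), and Control 5 was the lowest for Casp1 (33.9 CPM).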

How the results depend on the processing

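The 2 called cytokines became 3 without a filter, in DESeq2 and without a fold limit, 1 with at least 10 counts in every tumor, and between 0 and 2 with each tumor left out. The log2 fold change of Il10 ran from -0.20 (without IMQNP 2) to 1.90, and that of Il1a from -0.40 to 0.17, positive without Control 4 (0.17) or IMQNP 3 (0.06). Leaving out a tumor moved the calls to between 0 and 1 for other gp130 ligands, gp130 receptors, IL-1 adaptors and decay factors, between 0 and 4 for STAT3 targets and between 0 and 2 for NF-kB targets. The ratio differences ran from 1.70 to 2.46 (Il1b) and from 1.30 to 1.86 (Il1a), each with an exact permutation p of 0.0571, the smallest that 3 against 4 tumors allow.

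DESeq2 called 2 other gp130 ligands, 5 STAT3 targets, 3 NF-kB targets, 1 IL-1 receptor or decoy and 1 gene of the IL-10 family. Without a filter there were 4 STAT3 and 2 NF-kB targets, without a fold limit 2 NF-kB targets, and with upper-quartile normalization 0 STAT3 targets. The call of 1 IL-1 receptor or decoy also appeared with RLE, upper-quartile, no filter and at least 10 counts. Over all genes, 362 higher and 32 lower calls became 617 and 129 in DESeq2, 63 lower without a filter, and 197 to 375 higher and 8 to 38 lower with a tumor left out. The cause was not tested.

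Same-numbered deviations correlated at 0.29, -0.27 and -0.32, and differently numbered ones ran from -0.64 to 0.68. With so wide a range, these values cannot tell whether replicate numbers pair the tumors. In a fit with a replicate block, Control 5 and IMQNP 2 had no same-numbered partner and so added nothing to the group difference. That fit rests on the tumors numbered 1, 3 and 4, so its shifts cannot be told from leaving out Control 5 and IMQNP 2. It gave 416 genes higher and 267 lower, with 3 cytokines called, Il33 at -0.0039 and Il10 at -0.33. The lists gave 2 other gp130 ligands, 0 receptors, 5 STAT3 targets, 0 adaptors and 4 NF-kB targets. Il6 rested on 7 to 23 and Il10 on 2 to 22 counts per Control tumor.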
